A study of Canis lupus familiaris with 18 samples.

Results

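The acetylated regions described here are the 1-Mb stretches of the dog genome in which *H3K27ac* ChIP-seq peaks covered the most sequence in the pons, a part of the brainstem. The autosomes CFA1 to CFA38 were divided into 2182 bins of 1 Mb, and each bin was given the mean, over 6 dogs, of the bases covered by the *H3K27ac* peaks of each dog. The 218 bins with the highest mean were selected on these values, and the other 1964 bins serve for comparison. They are called the richest bins below. Every *H3K27ac* value that sets the richest bins against the others is therefore a description without a test, whereas the *E2F1* peaks of the same dogs played no part in the choice. Bins are named by chromosome and Mb on CanFam3.1, so that the bin CFA9 32–33 Mb runs from position 32000001 to 33000000.

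Of the 6 dogs, 3 carried a TE, a SINE derived from a tRNA gene, on 1 allele within *GTF2I* on CFA6. They are called ancestral. The TE was absent from both alleles of the other 3 dogs, which are called derived. All were male dogs of 12 to 16 years, sampled once each as flash frozen brainstem, and no dog was homozygous for the insertion. Each dog gave 1 *H3K27ac* and 1 *E2F1* library, with peaks called per dog. A block of pons mixes neurons, glia and vessel cells, so a difference in covered length cannot be told apart from a difference in cell composition, and the cell types were not checked against markers because no gene annotation of CanFam3.1 was used.

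Acetylation of lysine 27 on histone H3 is written by the acetyltransferases CBP and p300 and marks active promoters and enhancers. Active genes are unevenly spread along chromosomes, and the mark is found both as short peaks at single elements and as broad domains where many elements lie side by side. *E2F1* is a transcription factor best known for driving genes of DNA replication and the cell cycle, it binds mostly near promoters, and it is present in mature neurons too. Dog autosomes are acrocentric, with the centromere near the start of the numbered sequence.

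The *H3K27ac* lists held 99144 to 141336 peaks per dog and covered 221 to 305 Mb in all. At a q value below 0.0005, the *E2F1* lists held 19359 peaks in derived dog 1 and 64490 in derived dog 2, with the other 4 dogs between these. The deposited *E2F1* lists were longer, with 85871 to 163356 peaks per dog, so most of the listed peaks were set aside at this threshold. The paper reports low cross-correlation scores and unusual noise for its *E2F1* data, and cautions that binding sites may have been missed. *E2F1* density below is therefore a density of called peaks, which may differ from that of binding. Peak lists carry no reads, so the depth behind a single bin is unknown and a base without a peak is not shown to lack the mark.

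A mean of 343 kb of *H3K27ac* peaks lay in the median richest bin, with a range of 279 to 561 kb. The median of the other bins was 69.8 kb, and that of all bins was 83.9 kb. Covered length fell smoothly through the limit. The last bins inside were CFA4 24–25 Mb with 279.3 kb, CFA35 14–15 Mb with 279.1 kb and CFA9 19–20 Mb with 278.9 kb. The first bins outside were CFA2 77–78 Mb with 278.4 kb, CFA21 24–25 Mb with 277.0 kb and CFA9 40–41 Mb with 276.9 kb. Bins near the limit were thus separated by far less than the spread between dogs, which had an SD of 17.6 to 59.8 kb in these 6 bins.

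The 5 richest bins came from 3 chromosomes. CFA9 32–33 Mb stood first with 561 ± 49.9 kb (SD, n = 6 dogs). Its covered length was 619, 468 and 577 kb for ancestral dogs 1 to 3, compared with 565, 577 and 561 kb for derived dogs 1 to 3. It ranked no lower than position 4 in any single list. CFA9 55–56 Mb followed with 542 ± 75.5 kb and CFA20 44–45 Mb with 533 ± 80.6 kb. CFA9 56–57 Mb, which adjoins the second bin, held 527 ± 28.1 kb, and CFA6 17–18 Mb held 507 ± 88.6 kb. In each of these 5 bins ancestral dog 2 gave the lowest value and ancestral dog 1 the highest.

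In each dog, peaks covered roughly 4 times as much of the richest bins as of the others. The covered share of the richest bins was 41.6, 28.9 and 33.3% for ancestral dogs 1 to 3, compared with 36.2, 37.7 and 35.9% for derived dogs 1 to 3. In the other bins it was 10.5, 7.72 and 8.02%, and 9.01, 8.59 and 9.51%. These shares pool all bins of a class, and no share of the richest bins came near a share of the others. The selection favours this gap, and single bins near the limit were not apart in this way. The ratio between the 2 classes ranged from 3.74 in ancestral dog 2 to 4.39 in derived dog 2. Between 29.3 and 32.7% of all *H3K27ac* covered bases of a dog fell within the richest bins.

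**Figure D1:**
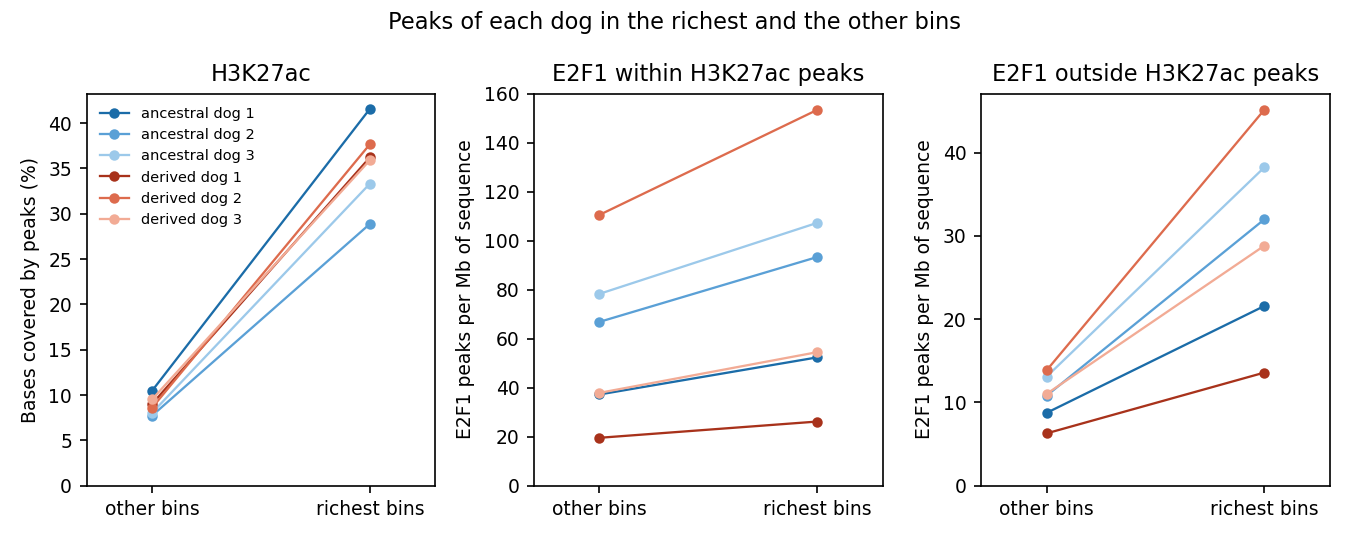
Left, percentage of bases covered by H3K27ac peaks in the 1964 other bins and the 218 richest bins; middle and right, E2F1 peaks per Mb of sequence lying within or outside the same dog's H3K27ac peaks. Each line is 1 of 6 dogs. H3K27ac coverage rises from 7.72–10.5% to 28.9–41.6%, by selection, and all 6 lines also rise for E2F1, more steeply outside (2.16 to 3.26 times) than within H3K27ac peaks (1.34 to 1.44 times).

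The richest bins were spread unevenly over the chromosomes. CFA9 held 24 of them among its 61 bins (39.3%), CFA20 held 17 among 58 (29.3%) and CFA24 held 12 among 47 (25.5%). These 3 chromosomes carried 53 of the richest bins on 166 bins in all. CFA26, CFA5 and CFA6 came next with 23.7, 20.5 and 19.5% of their bins. By contrast, CFA22, CFA29, CFA32 and CFA36 held none among 170 bins. The order was much the same in each list taken alone. A dog's own highest 10% of bins included 21 to 24 bins of CFA9 and 15 to 20 of CFA20, while CFA32 and CFA36 had none in any dog and CFA22 and CFA29 at most 1.

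**Figure D2:**
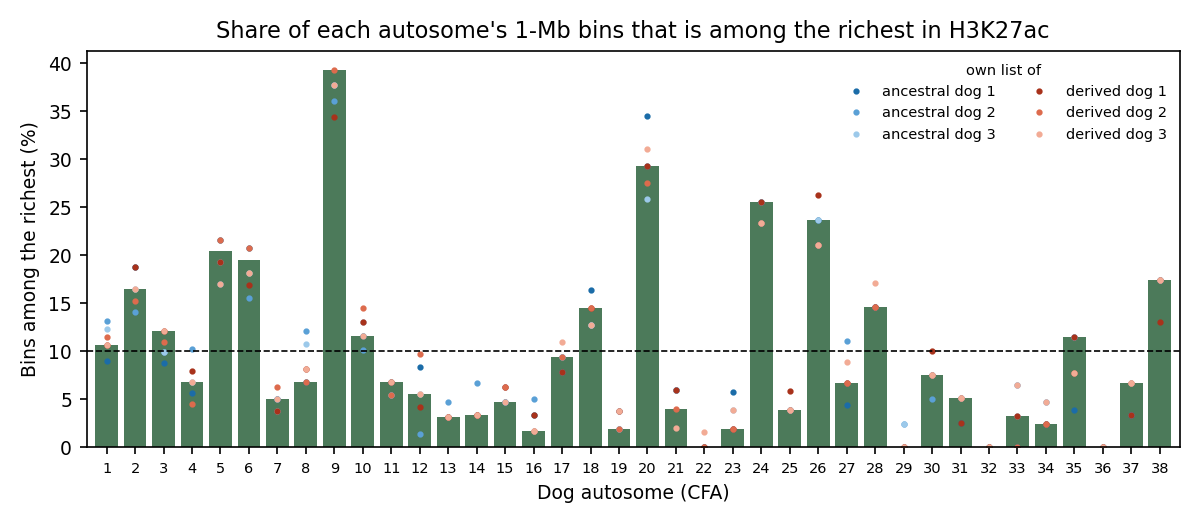
Percentage of each autosome's 1-Mb bins among the 218 richest (bars) and among the highest 10% of each single dog's list (points, some hidden where dogs coincide). The dashed line marks the share over all autosomes. CFA9 (39.3%), CFA20 (29.3%) and CFA24 (25.5%) stand highest, and CFA22, CFA29, CFA32 and CFA36 have no bar.

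Chromosome ends were not favoured. Of the first 5 bins of each autosome, next to the centromere, 7.89% were among the richest, and the same share was found in the last 5 bins kept. Between these, the share was 10.4%. Mean covered length was 107 kb in the first 5 bins, 101 kb in the last 5 and 118 kb between.

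The 218 bins formed 140 runs, of which 102 were single bins and 38 joined 2 or more. An adjoining bin was also among the richest for 116 of them (53.2%). Runs of 2 numbered 17 and runs of 3 numbered 12, and beyond these there were 2 runs of 4, 5 runs of 5, 1 run of 6 and 1 run of 7.

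The run of 7 lay on CFA6 from 6 to 13 Mb, the next megabases after the bin of *GTF2I*. Its bins held 359 kb on average, with 436, 273 and 332 kb for ancestral dogs 1 to 3, compared with 368, 395 and 349 kb for derived dogs 1 to 3. The level was uneven within it. CFA6 6–7 Mb only just entered the selection, at rank 211 with 280 kb, and was in the highest 10% of 2 dogs alone, whereas CFA6 12–13 Mb stood at rank 9 with 486 kb. The run ended abruptly, since CFA6 13–14 Mb held 40.2 kb and ranked 1471. The run of 6 covered CFA24 from 21 to 27 Mb with 343 kb per bin, and the run of 5 with the most coverage was CFA9 from 52 to 57 Mb with 436 kb per bin. The latter contains the bins of ranks 2 and 4.

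The bin that holds *GTF2I*, a general transcription factor gene of the Williams syndrome region, was not among the richest. CFA6 5–6 Mb held 160 ± 34.6 kb (SD, n = 6 dogs) and ranked 616 of 2182. Its values were 219, 117 and 146 kb for ancestral dogs 1 to 3, compared with 151, 175 and 149 kb for derived dogs 1 to 3, so that the genotypes overlapped, with a derived mean 2.41 kb below the ancestral one (exact permutation test, p = 1). In CFA6 6–7 Mb the derived mean exceeded the ancestral one by 31.6 kb, with 346, 198 and 249 kb in ancestral dogs and 280, 332 and 277 kb in derived dogs, which again overlapped (exact permutation test, p = 0.5). The 3 bins before *GTF2I*, from 2 to 5 Mb, held 108, 65.3 and 30.4 kb. The run of 7 thus began in the bin after that of *GTF2I*. In the gene order of UU_Cfam_GSD_1.0, another dog assembly, *GTF2I* is followed by *GTF2IRD1*, *CLIP2*, *RFC2*, *LAT2*, *EIF4H*, *LIMK1* and *ELN*, which were not placed in bins here.

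Coverage around the richest bins dropped within 1 bin. Part of this drop follows from the choice, since a bin outside the selection held at most 278.4 kb. Averaged over the dogs, bins adjoining a richest bin held 149 kb (lowest dog 121, highest 184), against 356 kb in the richest bins (289 to 416). At a distance of 2 bins the mean was 113 kb, at 3 bins 97.4 kb, and at 8 or more bins, or on a chromosome without any, 69.3 kb. *E2F1* peaks, which were not used to select bins, followed the same decline. They numbered 47.9 per richest bin, 24.8 in the adjoining bins, 19.9 at 2 bins and 10.8 at 8 or more, and each step up to a distance of 5 bins was a decline in all dogs.

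**Figure D3:**
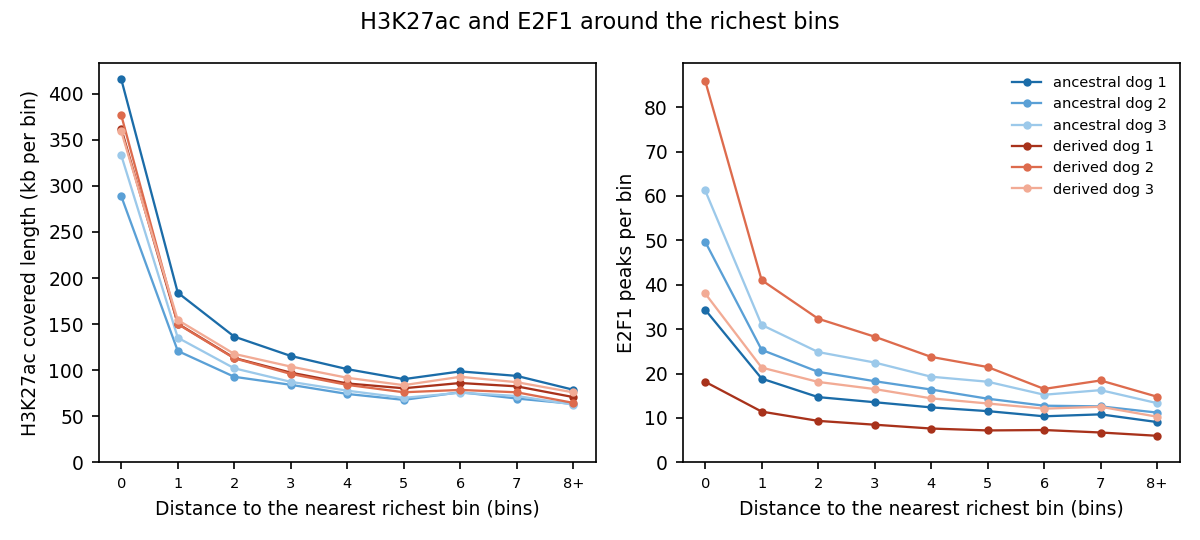
Mean H3K27ac covered length per bin in kb (left) and mean number of E2F1 peaks per bin (right) against distance from the nearest richest bin, in bins of 1 Mb. Each line is 1 of 6 dogs, distance 0 is the 218 richest bins, and 8+ includes chromosomes without any. Means over dogs fall from 356 to 149 kb and from 47.9 to 24.8 E2F1 peaks between distances 0 and 1. Bins at distance 1 or more were not selected, so part of the fall in H3K27ac follows from the choice.

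Both more peaks and longer peaks contributed to the high coverage, with number the larger part. After cutting peaks at bin edges, covered length equals the number of segments times their mean length. The richest bins held 129, 96.7 and 102 segments per Mb for ancestral dogs 1 to 3, compared with 116, 99.9 and 108 for derived dogs 1 to 3. The other bins held 37.7 to 55.6. Mean segment length in the richest bins was 3229, 2986 and 3263 bp for ancestral dogs, compared with 3118, 3770 and 3336 bp for derived dogs, against 1883 to 2276 bp elsewhere. The ratio of number was 2.32 to 2.65 and that of length 1.52 to 1.71. On the log2 scale number accounted for 65.4 ± 2.53% (SD, n = 6 dogs) of the difference in coverage, with 60.9% in ancestral dog 1 and 68.4% in ancestral dog 2 as the extremes.

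Single bins reached the selection by different routes. By number of segments, 149 of the 218 were in the highest 10% of all bins, and by mean segment length 140 were. Of the 218, 77 were high by both measures, 72 by number alone and 63 by length alone, and 6 by neither. All 218 were above the median of all bins for both. The bin with the most coverage, CFA9 32–33 Mb, was in the highest 10% by length alone, with 86.5 segments of 6488 bp on average. So was CFA9 56–57 Mb with 83.8 segments of 6286 bp. Both numbers of segments were still above the upper quartile of all bins, 76.8. By contrast, CFA9 55–56 Mb held 127 segments of 4281 bp. CFA6 17–18 Mb combined 140 segments with 507 kb. The largest number in any of the richest bins was 150 segments, with a mean length of 2957 bp and 443 kb covered.

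**Figure D4:**
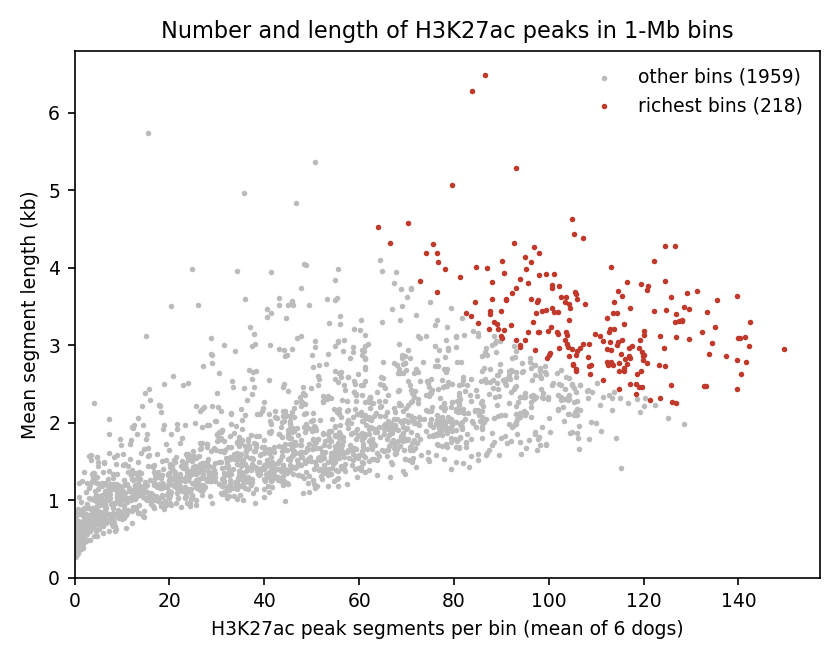
Number of H3K27ac peak segments per 1-Mb bin and their mean length in kb, both as means of 6 dogs, for the 218 richest bins and 1959 other bins (5 without a peak in any dog are left out). The richest bins occupy the upper right, from more and shorter segments (150 of 2957 bp) to fewer and longer ones (86.5 of 6488 bp), because their product was used to choose them.

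Broad domains took up a larger part of the covered sequence in the richest bins. Peaks of 10 kb or more made up 6.36 ± 0.960% of their peaks and 34.8 ± 3.19% of their covered bases (SD, n = 6 dogs). In the other bins they made up 2.08 ± 0.366% of peaks and 16.5 ± 1.91% of bases. Per Mb these were 6.87 such peaks against 0.903. Median peak width was 1652 bp in the richest bins and 1178 bp in the others. Enrichment over local background, as the authors' peak caller gives it, was similar, with a median of 3.18-fold in the richest bins and 3.03-fold in the others. Within the ranking of each list this placed the median peak at percentile 54.3 and 48.7.

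Within the richest bins, the longest *H3K27ac* domains were found at a small number of places in several dogs. In the other bins, the longest peak of a dog measured 74168 to 105460 bp. The longest domain of any dog, 140583 bp in ancestral dog 1, lay in a richest bin, on CFA5 from 15844109 to 15984691. A peak of 97025 to 100601 bp was called there in 4 of the other dogs, and a peak of 67978 bp in ancestral dog 2. On CFA28 from 31311910 to 31388292, the longest stretch of the richest bins covered without interruption in all 6 dogs measured 76383 bp, inside peaks of 82554, 76383 and 82576 bp for ancestral dogs 1 to 3, compared with 82503, 93627 and 76531 bp for derived dogs 1 to 3. The second such stretch, 73123 bp on CFA1 from 114361691 to 114434813, overlapped 7, 11 and 20 *E2F1* peaks for ancestral dogs 1 to 3, compared with 0, 28 and 9 for derived dogs 1 to 3. By comparison, the *H3K27ac* domain shared on CFA5, 67970 bp long, overlapped 1 to 6. These domains were named after their values were seen. Which genes they cover was not analysed here.

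The dogs agreed closely on which bins were richest. A dog's own highest 10% contained 197, 184 and 201 of the 218 for ancestral dogs 1 to 3, compared with 199, 202 and 201 for derived dogs 1 to 3. In all 6 lists 153 bins passed, in 5 lists 30, in 4 lists 17, in 3 lists 13, in 2 lists 4 and in 1 list 1. The own highest 20% of every dog contained 217 of them, and the lowest rank of any richest bin in any dog was 453 of 2182. In total 295 bins reached the highest 10% of at least 1 dog, 77 of which were not among the 218. A pair of dogs had 165 to 194 of their highest bins in common (median 189 over 15 pairs). The median was 189.5 for the 6 pairs of the same genotype and 189 for the 9 mixed pairs. Pairs share dogs, so they were not tested.

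Because each dog entered the mean that selected the bins, the selection was repeated without the dog in which it was then read. Bins chosen on 5 dogs were covered 3.71 to 4.36 times as much as the rest in the dog left out, and 213 to 217 of each choice were among the 218. Chosen on the ancestral dogs alone and read in the derived ones, the ratio was 3.997, 4.36 and 3.76, and in the opposite direction 3.98, 3.71 and 4.14. The choices made on either genotype had 204 of 218 bins (93.6%) in common. *E2F1* density in the bins chosen without the dog was 2.43 to 3.77 times that of its other bins.

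The order of bins was less alike within the selected set. Over all 2182 bins the Spearman correlation of covered length between 2 dogs was 0.968 to 0.991, and over the 218 it was 0.572 to 0.919. The same lists enter both, neighbouring bins are alike, and the 218 bins span a narrower range of coverage. At the level of bases, the union of the 6 lists covered 540 kb per richest bin, of which 38.7% was covered in all 6 dogs, against 165 kb and 24.9% in the other bins. The Jaccard index, the shared bases as a fraction of the bases covered in either dog, had a median of 0.670 in the richest bins and 0.534 in the others and was higher in the richest bins for 15 of 15 pairs. Denser coverage raises this index by itself, and its part in the result was not tested.

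*E2F1* peaks were about 3 times as dense in the richest bins as elsewhere. Per Mb, they numbered 34.4, 49.7 and 61.2 for ancestral dogs 1 to 3, compared with 18.1, 85.9 and 38.04 for derived dogs 1 to 3. The other bins had 11.7, 15.1 and 18.3, and 7.47, 22.1 and 13.6. In each dog the richest bins were higher. The ratio was lowest, at 2.43, in derived dog 1, which had the fewest *E2F1* peaks. It was highest, at 3.88, in derived dog 2, which had the most. The mean log2 ratio was 1.62 ± 0.234 (SD, n = 6 dogs), which is 3.08-fold (exact sign-flip permutation test, two-sided, p = 0.03125, the smallest value that 6 dogs allow). Covered length of *E2F1* peaks gave a mean log2 ratio of 1.85 ± 0.312, or 3.59-fold (exact sign-flip permutation test, p = 0.03125, higher in 6 of 6 dogs). With all deposited *E2F1* peaks the log2 ratio of density was 1.39, and at q below 1e-10 it was 1.93, higher in the richest bins in every dog under both. With an equal number of *E2F1* peaks per dog the log2 ratio of density was 1.77 ± 0.353 (SD, n = 6 dogs). With adjustment over the 4 *E2F1* measures tested, this p stayed at 0.03125 for each. Though they make up 10% of bins, the richest bins contained 21.2 to 30.1% of the *E2F1* peaks of a dog.

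Since part of the *E2F1* peaks lay within *H3K27ac* peaks, density was also measured separately within and outside the *H3K27ac* peaks of the same dog. Within them, the richest bins held 52.4, 93.3 and 107 *E2F1* peaks per Mb of covered sequence for ancestral dogs 1 to 3, compared with 26.2, 153 and 54.5 for derived dogs 1 to 3. The other bins held 37.2, 66.9 and 78.3, and 19.5, 111 and 37.9. The ratio was nearly the same in all dogs, 1.34 to 1.44, with a mean log2 ratio of 0.47 ± 0.035 (SD, n = 6 dogs), or 1.39-fold (exact sign-flip permutation test, p = 0.03125). With only *E2F1* peaks of q below 1e-10 it was 0.57, with derived dog 1 in the opposite direction (exact sign-flip permutation test, p = 0.0625). Higher density in the richest bins was therefore found also per acetylated base, but was small beside the 3.08-fold difference per Mb.

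Outside *H3K27ac* peaks the difference was larger. The richest bins held 21.6, 32.0 and 38.2 *E2F1* peaks per Mb of uncovered sequence for ancestral dogs 1 to 3, compared with 13.6, 45.1 and 28.8 for derived dogs 1 to 3, against 8.74, 10.8 and 13.1, and 6.28, 13.8 and 11.01, in the other bins. The mean log2 ratio was 1.44 ± 0.213, or 2.71-fold (exact sign-flip permutation test, p = 0.03125, n = 6 dogs), higher in 6 of 6 dogs. The log2 ratio outside exceeded that within by 0.96 ± 0.205 (exact sign-flip permutation test, p = 0.03125, n = 6 dogs), a comparison added after the values were seen. When sequence under a peak of any of the 6 dogs was set aside, also a later choice, the log2 ratio outside was 1.47 and that within 0.61. Of all *E2F1* peaks, 51.5 to 67.3% lay within *H3K27ac* peaks in the richest bins and 23.6 to 42.9% in the others.

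*E2F1* density rose with *H3K27ac* coverage up to the richest bins. Over deciles of bins ordered by *H3K27ac* coverage, mean *E2F1* density rose at every step, as it did in each dog, from 3.14 peaks per Mb in the lowest decile to 31.6 in decile 9 and 47.9 in the richest. Outside *H3K27ac* peaks it rose from 3.07 to 21.3 and 29.9, again at every step and in each dog. Within *H3K27ac* peaks it was 39.8 in the lowest decile, 65.6 in decile 9 and 81.2 in the richest. It did not rise at every step there, with 52.0 in decile 4 and 50.7 in deciles 5 and 6. In derived dog 1 it was 18.5 in decile 2 and 21.4 in decile 9. The dogs differed at the low end, where little sequence is covered. In derived dog 1 the lowest decile, at 30.4, exceeded the richest at 26.2, and in ancestral dog 1 these were close, at 52.1 and 52.4.

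**Figure D5:**
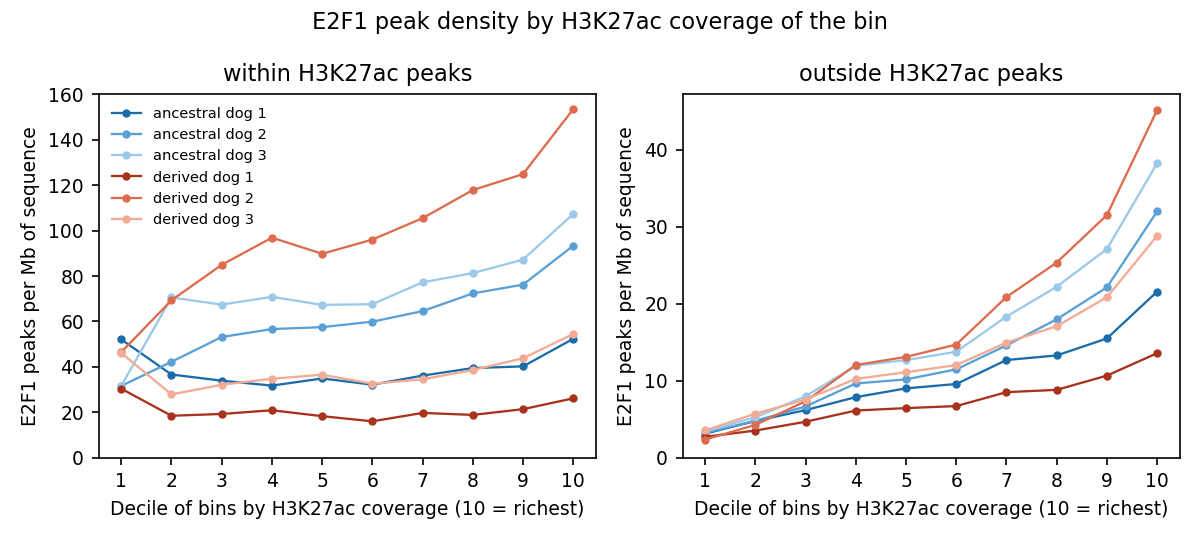
E2F1 peaks per Mb of sequence within (left) and outside (right) the same dog's H3K27ac peaks, by deciles of the 2182 bins ordered by H3K27ac coverage, 10 being the richest bins. Each line is 1 of 6 dogs. Outside, the mean rises from 3.07 to 29.9; within, from 39.8 to 81.2, but in derived dog 1 the lowest decile (30.4) lies above the richest (26.2) and in ancestral dog 1 they nearly coincide (52.1 and 52.4).

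The excess of *E2F1* was found on nearly every chromosome. Of the 34 chromosomes with at least 1 of the richest bins, *E2F1* peaks per bin were more numerous in them than in the other bins of the same chromosome in all 6 dogs on 33. The exception was CFA23, with 1 such bin, which held 16 *E2F1* peaks on average against 12.6 and was higher in 5 dogs. On CFA9 the means were 54.8 and 32.1, and on CFA20 57.9 and 24.0. On chromosomes without any of the richest bins, the mean was 6.99 to 9.17 peaks per bin.

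*E2F1* varied widely among the richest bins. The lowest mean was 11.2 peaks per bin and the highest 113, with a median of 44.7 against 10.7 in the other bins. None of the 218 lacked an *E2F1* peak in any dog, whereas 12 to 41 of the other bins, depending on the dog, did. CFA5 32–33 Mb had the most, with 84, 105 and 127 peaks for ancestral dogs 1 to 3, compared with 46, 199 and 116 for derived dogs 1 to 3, although it ranked only 154 by *H3K27ac*. CFA20 44–45 Mb, the third richest, came next with a mean of 105, and CFA7 41–42 Mb followed with 97.8. The fewest were found in CFA2 41–42 Mb, with 9, 14 and 17 peaks for ancestral dogs, compared with 10, 7 and 10 for derived dogs. This was the only richest bin below the median of all bins, which was 12 peaks. CFA37 6–7 Mb held 15.0 and CFA14 48–49 Mb 15.2, the latter with 351 kb of *H3K27ac* peaks.

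High *E2F1* and high *H3K27ac* coverage did not always coincide. Of the 218 bins, 119 were in the highest 10% by *E2F1*, and 79 of the other bins exceeded the median richest bin. The bin with the most *E2F1* peaks of all, CFA20 57–58 Mb, was not selected. It held 65, 120 and 160 peaks for ancestral dogs 1 to 3, compared with 23, 220 and 91 for derived dogs 1 to 3, yet only 52.6 kb of *H3K27ac* peaks, at rank 1368. This bin was singled out after its values were seen. Across the 218 bins, the Spearman correlation of *E2F1* peak number with *H3K27ac* coverage of the same dog was 0.56, -0.015 and 0.36 for ancestral dogs 1 to 3, compared with 0.22, 0.61 and 0.13 for derived dogs 1 to 3, against 0.68 to 0.87 across all 2182 bins. The bins of 1 dog share its 2 libraries, and neighbouring bins are alike.

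Bins rich through number had more *E2F1* than bins rich through length. In the 72 bins high by number alone, *E2F1* peaks per Mb were 33.9, 49.0 and 58.0 for ancestral dogs 1 to 3, compared with 17.7, 83.0 and 38.1 for derived dogs 1 to 3. In the 63 bins high by length alone they were 28.2, 38.05 and 49.9, and 15.8, 67.4 and 31.1. The former exceeded the latter in every dog, with a mean log2 ratio of 0.27 ± 0.071, or 1.204-fold (exact sign-flip permutation test, p = 0.03125, n = 6 dogs, added after the data were seen). The mean *H3K27ac* covered length of these classes was close, at 325 and 336 kb. The 77 bins high by both had 56.7 *E2F1* peaks per Mb on average. Among neighbours, CFA9 55–56 Mb held 89.0 *E2F1* peaks on average, while CFA9 56–57 Mb, with its long segments, held 32.8.

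*E2F1* peaks in the richest bins had a slightly larger median width in each dog and recurred more often. The mean of these medians was 338 bp against 300 bp, while their median fold enrichment was 5.25 against 5.19. Peaks of 1000 bp or more made up 4.51 ± 3.03% of *E2F1* peaks (SD, n = 6 dogs) against 2.19 ± 1.42%, but derived dog 1 ran the other way, with 0.531% in the richest bins and 0.941% in the others. A peak of another dog overlapped 48.2, 54.1 and 52.5% of the *E2F1* peaks in the richest bins for ancestral dogs 1 to 3, compared with 39.7, 42.6 and 47.6% for derived dogs 1 to 3. In the other bins the shares were 30.05, 37.3 and 36.5%, and 28.4, 32.9 and 29.7%. Density raises such overlap too, and its part was not tested. By Jaccard index, *E2F1* overlap was low throughout, with a median of 0.102 in the richest bins and 0.0690 in the others. It was higher in the richest bins for 12 of 15 pairs of dogs, and the 3 exceptions all involved derived dog 1.

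No difference between genotypes was resolved in the richest bins as a set. Their covered share was 2.01 percentage points higher in the derived dogs, but the ancestral dogs alone spanned 28.9 to 41.6% (exact two-sided permutation test of 3 against 3, p = 0.7, where 0.1 is the smallest p possible). It depended on single ancestral dogs. Whenever a dog was left out here and below, the bins were selected again on the other dogs. Without ancestral dog 1 it was 5.43 points (exact permutation test, p = 0.1, the smallest possible), and without ancestral dog 2 it turned to -0.83 points (exact permutation test, p = 0.8). The share of a dog's covered bases lying in the richest bins differed by 0.54 points (exact permutation test, p = 0.6), with 30.6, 29.3 and 31.6% for ancestral dogs 1 to 3, compared with 30.9, 32.7 and 29.5% for derived dogs 1 to 3, and this turned to -0.012 without ancestral dog 2 and to -0.30 without derived dog 2. Without ancestral dog 3 it was 1.11 points and without derived dog 3 1.34 points (exact permutation test, p = 0.4 for both). For *E2F1*, the log2 ratio of richest to other bins differed by -0.096 between derived and ancestral dogs (exact permutation test, p = 0.6), and this turned to 0.053 without derived dog 1. Without derived dog 2 it was -0.29 (exact permutation test, p = 0.2), without ancestral dog 1 -0.16 (exact permutation test, p = 0.6), and with *E2F1* peaks of q below 1e-10 it was -0.55 (exact permutation test, p = 0.5). All 3 adjusted p-values were 0.7 (Benjamini-Hochberg over these exact permutation tests).

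Bin by bin, the genotypes rarely separated. In covered bases, all derived dogs exceeded all ancestral dogs in 1 of the 218 bins (0.459%), against 1.1% of all 2182 bins, and the opposite was found in 0, against 1.42% of all bins. The single bin was CFA2 41–42 Mb, with 276, 245 and 277 kb for ancestral dogs 1 to 3, compared with 339, 298 and 320 kb for derived dogs 1 to 3, which is also the richest bin with the fewest *E2F1* peaks. This count depended on ancestral dog 1, whose list was the longest. Without it, 218 bins were selected again on the other dogs, and 213 of these were among those described above. In 153 of the newly selected bins (70.2%) both other ancestral dogs were below all derived dogs, against 32.0% of all bins.

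The counts were also taken after dividing each dog's values by its total. On this scale the derived dogs were higher in 3 of the 218 bins (1.38%), against 1.79% of all bins, and the ancestral dogs in 2 (0.917%), against 3.07% of all bins. Without ancestral dog 1 the derived dogs were higher in 17 bins (7.80%), against 8.02% of all bins, and the ancestral dogs in 23 (10.6%), against 10.2% of all bins. The share with derived dogs higher passed that of all bins in some other omissions. Without derived dog 3 it was 23 bins (10.6%), against 4.63% of all bins, and without ancestral dog 3 12 bins (5.50%), against 3.48%. It stayed below without ancestral dog 2 (1.83%, against 4.95%), derived dog 1 (3.21%, against 5.04%) and derived dog 2 (2.75%, against 8.34%). The share with ancestral dogs higher was below that of all bins in each of these omissions. The widest gap was found at CFA4 59–60 Mb, where covered length scaled to the mean total was 396, 393 and 425 kb for ancestral dogs 1 to 3, compared with 442, 497 and 439 kb for derived dogs 1 to 3. CFA20 32–33 Mb and CFA20 19–20 Mb were the other bins higher in derived dogs, and CFA2 35–36 Mb and CFA9 44–45 Mb those higher in ancestral dogs. Their gaps between the nearest dogs were 0.265 to 2.69% of the mean of the bin. With all 6 dogs and all listed peaks, the shares of the richest bins were below those of all bins in both directions and on both scales. At *H3K27ac* q below 1e-05 they were above in 2 of these comparisons, with derived dogs higher in 4.13% in covered bases, against 3.67% of all bins, and ancestral dogs higher in 4.13% after division by the total, against 2.80%.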

How the data were processed

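ChIP-seq peak lists from 6 dogs (12 lists) were used, with groups and replicate numbers from the sample labels. Per the labels and methods, the authors trimmed reads (Trim Galore 0.0.6), aligned them to CanFam3.1 (Bowtie 1.1.2 in the submitters' processing notes, another version in the methods), removed duplicates by unique molecular identifier and called peaks per dog with MACS2 2.2.0, narrow for E2F1 and broad for H3K27ac. Whether input DNA entered the calls is not given in the sources used here. The deposited lists hold positions, the macs2 score (not used here), the fold enrichment over local background and −log10 p and −log10 q as computed by the authors. They precede the blacklist and spike-in steps of the study, and no normalization between dogs applies.

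Bins of 1 Mb were counted from position 0. No chromosome lengths were at hand, so a chromosome was taken to end at the highest peak end of the 12 lists, and its last bin was dropped. All listed H3K27ac peaks were used, cut at bin edges. E2F1 peaks with q below 0.0005 were counted by midpoint. Dogs were the replicates: sign-flip tests used 64 assignments and genotype tests 20. Numbers do not pair dogs across genotypes. Named bins were the 5 with most coverage, the 3 longest runs, 3 on either side of the limit, the extremes of E2F1 and of genotype gap, and those next to *GTF2I*. The members and lists were chosen with earlier results of these data known. Alternatives were H3K27ac q below 0.05 or 1e-05, equal peak numbers, other bin sizes (500 kb, 2 Mb), offsets and selected shares (5, 20%), scaling by each dog's total, other E2F1 thresholds (all peaks, q below 1e-10, none above 100-fold), other bins restricted to those with a peak in every dog, and leaving out each dog. When a dog was left out, the bins were selected again on the other dogs. The steps were tested on simulated data. Gene markers and sequences were not analysed here, since no CanFam3.1 genome or annotation was used. Python 3.11.15, numpy 2.4.6, pandas 2.3.3, scipy 1.17.1 and matplotlib 3.10.9 were used.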

Additional observations from a re-analysis of the deposited data

Results flagged for a closer look

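The X chromosome was outside the choice of bins, which covered the autosomes. Of its 123 bins, 1 reached the limit of the richest autosomal bins, X 6–7 Mb, with a mean *H3K27ac* covered length of 373 kb over the 6 dogs. The mean of all X bins was 47.7 kb, with 7.17 *E2F1* peaks per bin. All dogs were male and carry a single X, so covered length there cannot be set beside that of autosomes. It was noted because it lies in sequence that no comparison above used.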

How the results depend on the processing

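Of 180 alternative values of 10 results, 135 were counted as unchanged. These kept their direction and their side of the 0.05 threshold, or stayed within the spread between dogs. For the share of bins without overlap between genotypes, which has no such spread, a share of similar size was counted as unchanged. Of the rest, 25 kept their direction but no longer passed the threshold, 16 moved and 4 reversed. These counts do not measure robustness, since the exact permutation tests of genotype cannot give a p below 0.1. With a dog left out, the exact permutation tests of the *E2F1* ratios cannot pass the threshold either. Leaving out a dog left the 4 *E2F1* ratios between 1.53 and 1.69 (density), 1.73 and 1.94 (covered length), 0.45 and 0.48 (within *H3K27ac* peaks) and 1.34 and 1.501 (outside) on the log2 scale, with an exact permutation p of 0.0625, the smallest that 5 dogs allow. With *E2F1* q below 1e-10 the log2 ratio within *H3K27ac* peaks was 0.57, and derived dog 1 fell below 0 (exact permutation test, p = 0.0625). The genotype differences, none of which passed the test, ranged from -0.83 to 5.43 points (covered share), -0.30 to 1.34 points (share of bases) and -0.29 to 0.053 (log2 *E2F1* ratio) when a dog was left out. The last was -0.55 at *E2F1* q below 1e-10. Replicate numbers were not taken to pair the dogs. Over all bins, *H3K27ac* coverage of same-numbered dogs had Spearman correlations of 0.985, 0.969 and 0.991, against a median of 0.987 over all 9 mixed pairs. A replicate block left the differences at 2.01 points, 0.54 points and -0.096, with exact permutation p-values of 0.75, 0.75 and 0.5 and a smallest possible p of 0.25. Genotypes did not overlap, in either direction in covered bases, in 0.459% of the richest bins (2.52% of all bins), 0.917% (3.25%) at *H3K27ac* q below 0.05, 4.59% (5.04%) at q below 1e-05, 4.13% (6.65%) with equal peak numbers and 1.60% (3.92%) with 500 kb bins. The share was 0 at 5% selected (2.52%), with 2 Mb bins (1.57%) and with bins shifted by 500 kb (3.33%). When a dog was left out it was 0.459 to 70.2%, and the share of all bins moved too. Without ancestral dog 1, derived dogs were higher in 70.2% of the richest bins and 32.0% of all bins. Without ancestral dog 2, they were higher in 0.459%, against 2.25% of all bins, and ancestral dogs in 0, against 2.70%. After division by the total, the derived dogs were higher in 2.52% of bins at 20% selected, against 1.79% of all bins. The held-out coverage ratio averaged 3.99 and was 4.95 at q below 1e-05, 4.67 with 500 kb bins and 3.40 with 2 Mb bins, where the part of peak number was 68.4%. The causes were not tested. Of the 218 bins, 194 were also selected at q below 1e-05.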
